A study of Mus musculus with 6 samples.

Results

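The lipid handling genes described here are 10 genes of lipoprotein assembly, fatty acid binding and lipid droplets that are best known from the intestine and liver, namely Apob, Mttp, Apoa1, Apoa2, Apoa4, Apoc3, Fabp1, Fabp2, Mettl7b and Plin2. They were measured by 17 probe sets annotated with one of these symbols alone, of 45037 probe sets for 18193 genes in all, and all 17 were used with no filter on low values. The set was selected on the log2 differences between miR-200 and control cells on these same 6 arrays, which were known from an earlier analysis. Their values in that comparison are therefore given as a description, with no p-value printed. Whether a member was past the threshold is stated as part of that description, and nothing beyond it is supported.

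RNA came from 344SQ cells, established from the subcutaneous metastasis of a mouse with lung adenocarcinoma, an animal with the K-rasLA1 and p53R172H∆g alleles, which all cells compared here carry. In 3 cultures the cells expressed the microRNA cluster miR-200b-200a-429 from a lentivirus, and in 3 cultures they carried the control vector. Both kinds were pools of GFP-positive transduced cells kept under puromycin, and each culture, lettered A, B or C, gave 1 array. Nothing in the labels says that cultures of one kind came from separate transductions, so spread and p-values refer to these cultures and a lasting difference between the pools cannot be told apart from an effect of the microRNAs.

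Enterocytes and hepatocytes pack dietary or newly made triglyceride into particles built on a single molecule of apolipoprotein B. The microsomal triglyceride transfer protein, encoded by Mttp, loads that protein with lipid in the endoplasmic reticulum, and smaller exchangeable apolipoproteins such as those of Apoa1, Apoa4 and Apoc3 coat the particle. Fatty acid binding proteins carry fatty acids through the cytosol, and lipid that is not exported is stored in droplets coated by perilipins. In mouse intestine and liver many of these genes are under control of Hnf4a and of nuclear receptors of the PPAR family.

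The microRNAs that the cells were made to express are printed because they define the comparison, with the seed, bases 2 to 8, in capitals. miR-200b and miR-429 share the seed AAUACUG, whereas miR-200a has AACACUG. The mature sequences are those of RefSeq on GRCm38.p6. The microRNAs themselves and their target sites were not analysed here.
mmu-miR-200b-3p: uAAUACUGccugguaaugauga
mmu-miR-429-3p: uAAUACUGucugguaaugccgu
mmu-miR-200a-3p: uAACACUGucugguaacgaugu

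Levels are log2 signals after quantile normalization, 1 value per probe set and array, and levels of different probe sets are not compared with each other. A difference is miR-200 minus control on that scale, with the standard error (SE) of the limma fit, and group values are mean ± SD with n = 3. The background gauge, 5.28, is the highest value of the TrpnX control probe sets, which match a bacterial transcript. Where the mean of the dimmer group was below this gauge, a fold is written "at least", with each dimmer array set to the gauge if it lay under it, and where both means lay under it no fold is given. A culture with fewer cells that express a gene and one with less RNA per cell cannot be told apart in these bulk samples.

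Of the 17 probe sets, 14 had a difference below 0 and 3 above 0. In 9 of them all 3 miR-200 values lay below all 3 control values, against 9.76% of all probe sets, and in 0 did all lie above. An adjusted p below 0.05 in limma was reached by 3 probe sets, all lower in the miR-200 cells, one each of Apob, Fabp1 and Mettl7b, against 0.486% of all probe sets. With each gene represented by its brightest probe set, 2 of the 10 genes, Apob and Mettl7b, were past that threshold, against 0.945% of 18193 genes in either direction. In 4 of the 10, Apob, Fabp1, Fabp2 and Mettl7b, the groups did not overlap with the miR-200 values lower, against 12.1% of all genes. The median difference of the 10 genes was -0.24, against 0.0014 over all genes. These shares describe the set and are no test of it, since the same contrast chose it.

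**Figure D1:**
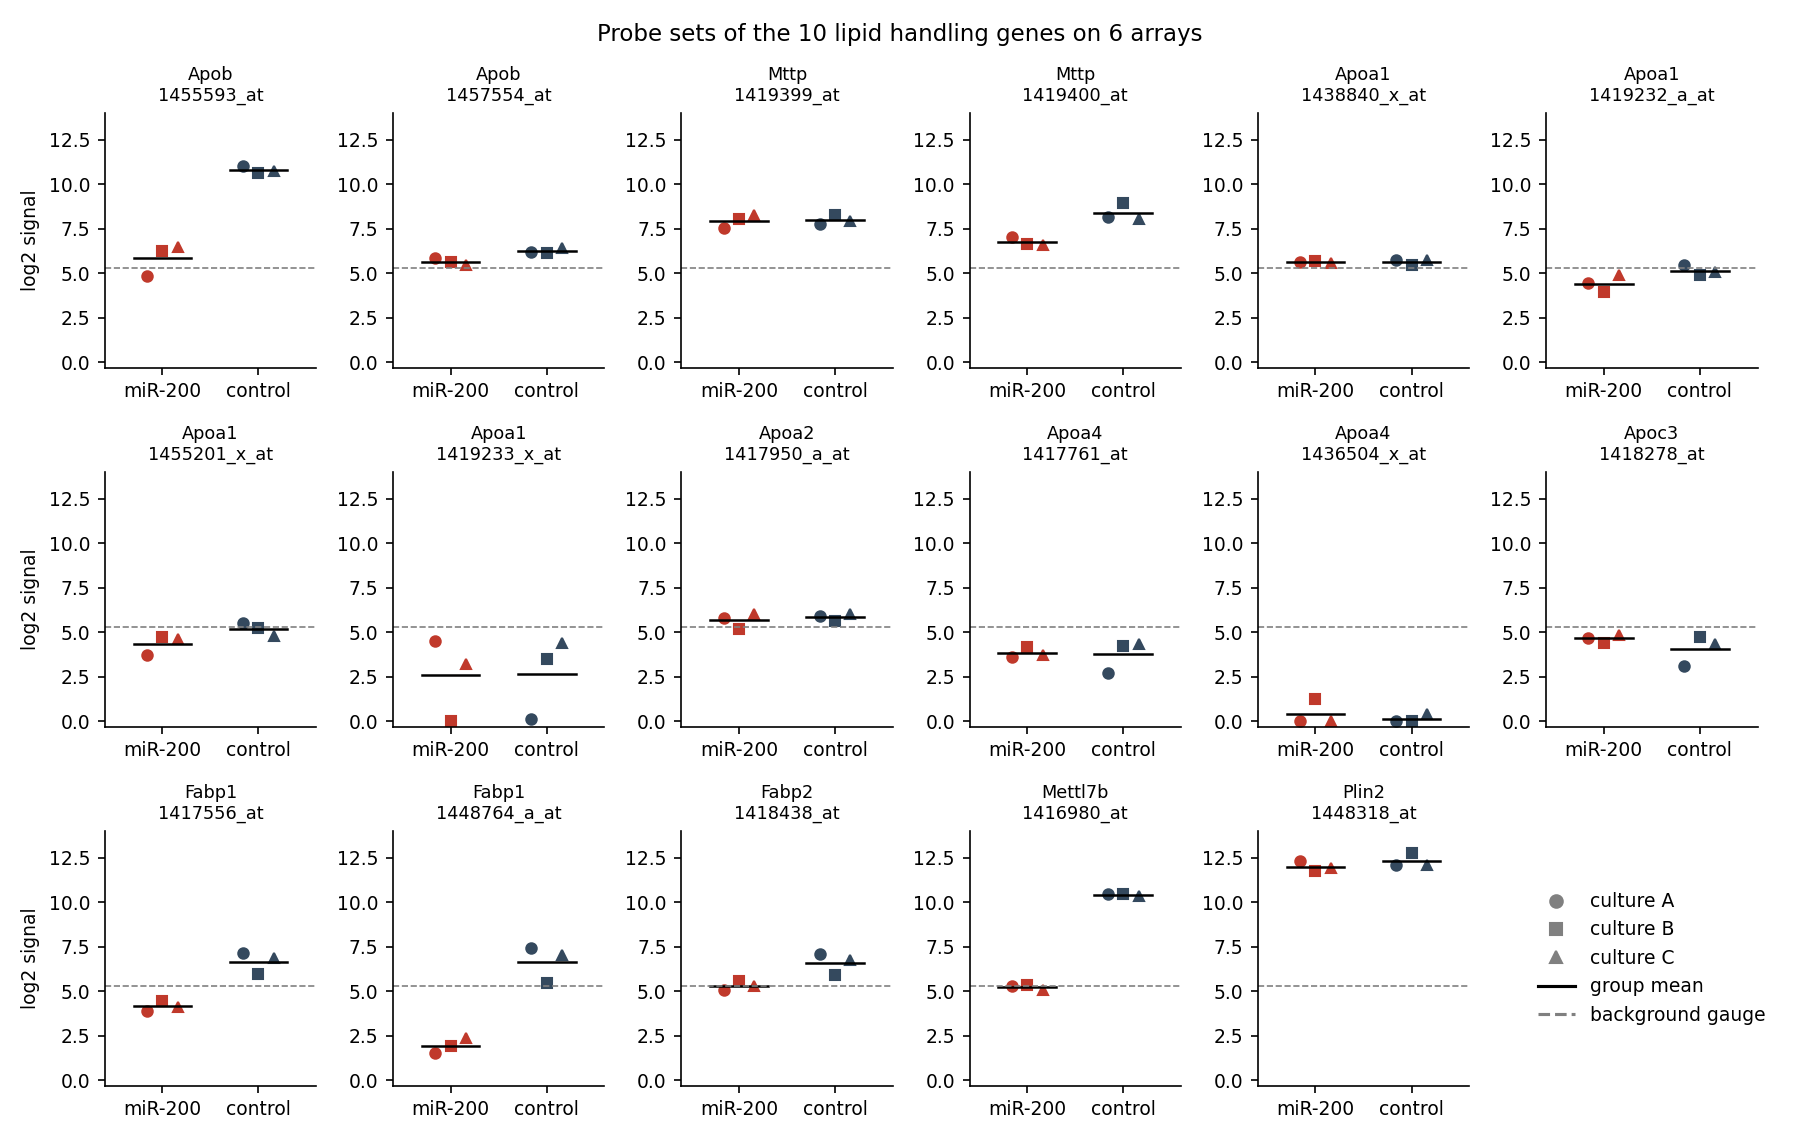
Log2 signal of each of the 17 probe sets on the 3 miR-200 arrays (red, left) and the 3 control arrays (dark, right), with the group mean as a line and the background gauge of 5.28 dashed; marker shapes give the culture letter. Apob (1455593_at) and Mettl7b lie between 10.37 and 11.02 in the control cells and between 4.83 and 6.48 in the miR-200 cells, whereas Plin2 overlaps between the groups.

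Apob, the gene of the structural protein of chylomicrons and very-low-density lipoproteins, was strongly expressed in these lung tumour cells with the control vector and close to background in the miR-200 cells. Probe set 1455593_at read 4.83, 6.25 and 6.48 on miR-200 A, B and C, against 11.02, 10.64 and 10.77 on control A, B and C. The groups were far apart, and the single value under the gauge was that of miR-200 A. The difference was -4.95 ± 0.46 (SE), 31.0-fold lower, and -4.53 without both control B and miR-200 A. Over the brightest 27022 probe sets the deviations of these arrays from their group means ran together, with r = 0.71. Of the pairs with different letters, r was computed for this one alone.

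The second Apob probe set, 1457554_at, was close to the gauge on every array and showed a much smaller difference. It read 5.83, 5.63 and 5.45 in the miR-200 cells and 6.17, 6.13 and 6.42 in the control cells. The groups did not overlap, and the difference was -0.60 ± 0.16. The deposited annotation does not tell which part of the transcript either probe set covers.

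The 2 probe sets of Mttp disagreed, although both are annotated with the same sequence accession. Probe set 1419400_at read 7.05, 6.62 and 6.61 in the miR-200 cells and 8.16, 8.93 and 8.07 in the control cells. Here the groups were separate, with control B the highest, and the difference was -1.62 ± 0.28, 3.08-fold lower. Probe set 1419399_at read 7.53, 8.03 and 8.26 in the miR-200 cells and 7.77, 8.25 and 7.94 in the control cells. These values overlapped, with a difference of -0.05 ± 0.24, and that sign was the opposite, 0.29, without control B and miR-200 A. A direction for Mttp as a gene is therefore not given. P4hb, which encodes the other subunit of the transfer protein and is no member, read 12.17 ± 0.16 in the miR-200 cells and 12.50 ± 0.07 in the control cells (adjusted p = 0.381 in limma).

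The exchangeable apolipoproteins were at or near background in both kinds of cell. Apoa1, which encodes the main protein of high-density lipoprotein, has 4 probe sets, and 3 of them had both group means under the gauge. The brightest one, 1438840_x_at, read 5.65, 5.71 and 5.55 in the miR-200 cells and 5.75, 5.46 and 5.73 in the control cells, a difference of -0.01 ± 0.14. The suffix x marks Affymetrix probe sets with probes that also match other sequences.

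For 2 dim Apoa1 probe sets the groups did not overlap, with both group means under the gauge. Probe set 1419232_a_at differed by -0.71 ± 0.29 and 1455201_x_at by -0.82 ± 0.35, and no fold is given for either. The third, 1419233_x_at, scattered between 0.00 and 4.54 in the miR-200 cells and between 0.14 and 4.42 in the control cells, with a difference of -0.10 ± 1.59.

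Apoa2, which encodes another protein of high-density lipoprotein, read 5.82, 5.17 and 6.02 in the miR-200 cells and 5.90, 5.61 and 6.01 in the control cells. The values overlapped, with a difference of -0.17 ± 0.27. Apoa4, an apolipoprotein of intestinal chylomicrons, was under the gauge on all 6 arrays with both probe sets, with differences of 0.06 ± 0.48 and 0.29 ± 0.39. Apoc3, an inhibitor of lipoprotein clearance, was under it on all 6 arrays as well, at 4.70, 4.43 and 4.86 in the miR-200 cells and 3.08, 4.74 and 4.35 in the control cells. Signals under the gauge are listed values and do not show that a transcript was absent.

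Apoa1, Apoc3, Apoa4 and Apoa5 lie next to each other on chromosome 9 in the RefSeq gene order of GRCm38.p6. Apoa5, no member, read 6.70 ± 0.13 in the miR-200 cells and 6.62 ± 0.33 in the control cells (adjusted p = 0.897 in limma). Apob is on chromosome 12, so the gene with the strong signal is not part of that cluster.

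For both intestinal fatty acid binding protein genes all miR-200 values lay below all control values, but of their 3 probe sets only 1448764_a_at of Fabp1 was past the threshold. Fabp1, the liver-type protein that enterocytes also make in quantity, read 3.91, 4.48 and 4.10 with probe set 1417556_at in the miR-200 cells and 7.13, 5.98 and 6.90 in the control cells. All 3 miR-200 values were under the gauge, control B was the lowest control value, and the groups did not overlap. The difference was -2.51 ± 0.35, at least 2.62-fold lower.

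The other Fabp1 probe set, 1448764_a_at, gave 1.52, 1.92 and 2.36 in the miR-200 cells and 7.44, 5.48 and 7.05 in the control cells. The groups did not overlap, and control B was again the lowest control. The difference of -4.72 ± 0.56 depends on signals far under the gauge, and the bound from the gauge was at least 2.60-fold lower in the miR-200 cells.

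Fabp2, the intestinal fatty acid binding protein, read 5.05, 5.55 and 5.31 in the miR-200 cells and 7.08, 5.90 and 6.77 in the control cells. The groups did not overlap, although miR-200 B and control B were close. The difference was -1.28 ± 0.34, 2.43-fold lower. Without control B and miR-200 A the differences were -2.72 and -5.10 for the Fabp1 probe sets and -1.49 for Fabp2.

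Mettl7b, now also called Tmt1b, encodes a methyltransferase-like protein of the endoplasmic reticulum and lipid droplets, and its values varied little within each group. It read 5.31, 5.36 and 5.06 in the miR-200 cells and 10.47, 10.44 and 10.37 in the control cells. The miR-200 values lay at the gauge and the control values had an SD of 0.05. The difference was -5.18 ± 0.14, at least 34.5-fold lower, and -5.21 without control B and miR-200 A.

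Plin2, which encodes the perilipin that coats lipid droplets in most cell types, was high on every array. It read 12.34, 11.73 and 11.92 in the miR-200 cells and 12.11, 12.76 and 12.06 in the control cells. The groups overlapped, and miR-200 A and control B had the highest value of their groups. The difference was -0.31 ± 0.27, and -0.26 without these arrays.

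**Figure D2:**
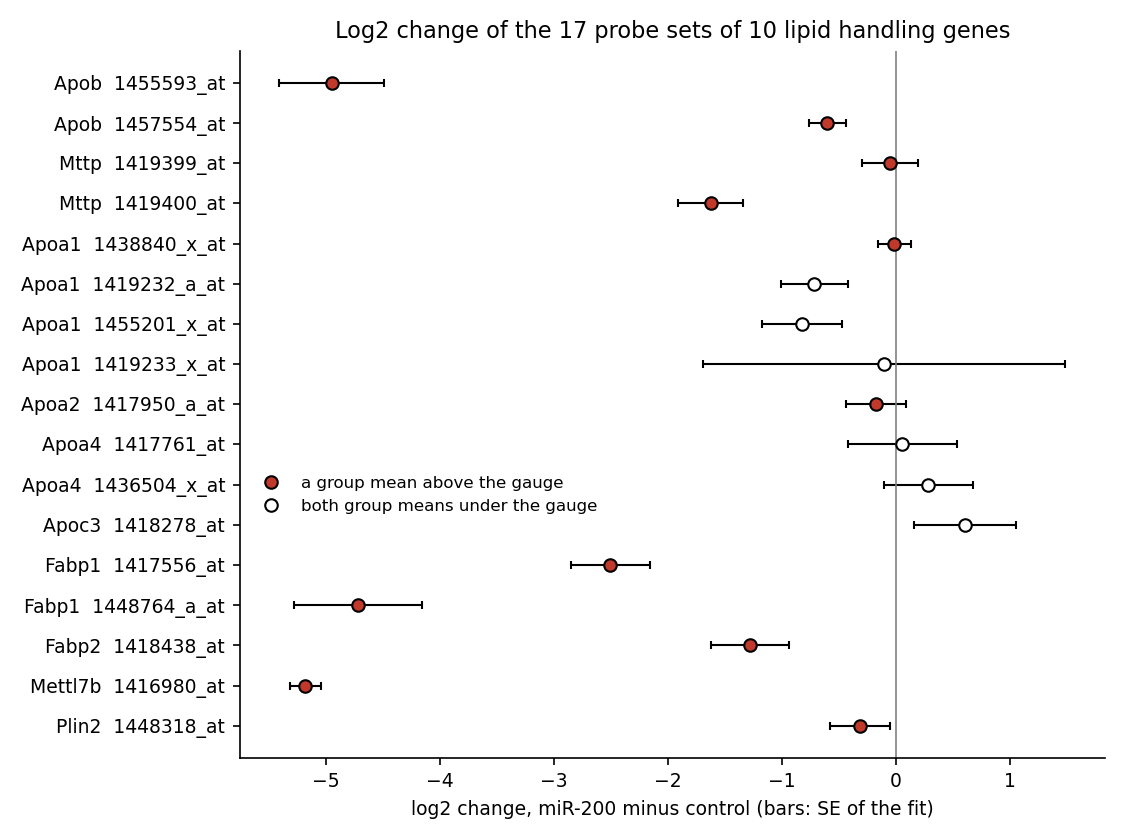
Difference in log2 signal, miR-200 minus control, for each of the 17 probe sets, with the SE of the fit as bars; open circles are probe sets with both group means under the background gauge. The differences of Apob (1455593_at), Fabp1 (1448764_a_at) and Mettl7b lie between -5.18 and -4.72, and the probe sets of Apoa4 and Apoc3 are the 3 above 0.

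Leaving out arrays changed which members were past the threshold, although no probe set past it in any of these settings was higher in the miR-200 cells. Mettl7b stayed past it without any 1 of the 6 arrays, with differences from -5.24 to -5.09. Apob (1455593_at) stayed past it only without miR-200 A, with differences from -5.27 to -4.44. Fabp1 (1448764_a_at) stayed past it only without control B, where 1417556_at also passed. Without control A, control C, miR-200 B or miR-200 C, neither Apob nor Fabp1 was past it. Without both control B and miR-200 A, Apob (1455593_at) and Mettl7b were past it. These calls describe the dependence on single arrays and support nothing beyond it, since the same contrast chose the members.

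Across the 6 arrays the signals of several members ran together with Apob (1455593_at). Pearson's r was 0.974 for Mettl7b, 0.962 and 0.971 for the probe sets of Fabp1, 0.891 for Fabp2 and 0.872 for Mttp (1419400_at). It was 0.820 for the second Apob probe set, 0.348 for Plin2 and 0.239 for the other Mttp probe set. Apoa1 probe sets 1419232_a_at and 1455201_x_at, with both group means under the gauge, had 0.748 and 0.832. The remaining member probe sets lay between -0.534 (Apoc3) and 0.262 (Apoa2). The points are 2 groups of 3 arrays, so these values mostly restate the difference between the groups and are given as a description.

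The genes outside the set with the pattern most like Apob were taken among genes with a range of at least 2 over the 6 arrays, by their brightest probe set. The 10 highest had r between 0.985 and 0.997, and all were lower in the miR-200 cells. That direction largely follows from the ranking, since Apob itself differed mostly between the groups. They are 1700110K17Rik, Steap1, Lman1l, Tmem117, Pir, Rab27a, Ifi47, Hspa12a, Dusp22 and Sult1b1. Hspa12a had both group means under the gauge, and several others, Ifi47 among them, had a miR-200 mean under it. Rab27a, a small GTPase of secretory vesicles, had a difference of -3.73 ± 0.18, and Steap1, a membrane protein of the metalloreductase family, one of -1.63 ± 0.24. Sult1b1, a cytosolic sulfotransferase, read 4.28 ± 0.26 in the miR-200 cells and 6.73 ± 0.10 in the control cells.

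Promoter windows of RefSeq on GRCm38.p6, 250 bases before to 50 after an annotated start, were read for 9 of the 10 genes, 10 windows in all. They were searched on both strands for 5 short motifs known from intestinal and hepatic promoters. The half-site of Hnf1 factors was written GTTAAT, and 7.1% of the 32851 windows of this length hold it. A site of Hnf4 factors was written CAAAGTCCA and stands in 0.475% of the windows. The half-site of nuclear receptors was written AGGTCA and stands in 16.3% of them. The site of Cdx factors was written TTTATG, with a share of 11.9% of the windows. The site of Gata factors was written AGATAA, with a share of 11.2%, and no motif contains another. The windows of Apob, Fabp1 and Mettl7b are printed because these genes had a probe set past the threshold, with matches in either orientation in capitals.
Apob, chr12:7977427-7977726, plus strand: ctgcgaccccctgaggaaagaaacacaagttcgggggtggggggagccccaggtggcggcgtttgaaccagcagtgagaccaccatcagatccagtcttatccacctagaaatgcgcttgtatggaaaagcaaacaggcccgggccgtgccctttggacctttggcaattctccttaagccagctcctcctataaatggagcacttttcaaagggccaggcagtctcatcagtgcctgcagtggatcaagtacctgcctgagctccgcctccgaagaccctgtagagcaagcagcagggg
Fabp1, chr6:71199629-71199928, plus strand: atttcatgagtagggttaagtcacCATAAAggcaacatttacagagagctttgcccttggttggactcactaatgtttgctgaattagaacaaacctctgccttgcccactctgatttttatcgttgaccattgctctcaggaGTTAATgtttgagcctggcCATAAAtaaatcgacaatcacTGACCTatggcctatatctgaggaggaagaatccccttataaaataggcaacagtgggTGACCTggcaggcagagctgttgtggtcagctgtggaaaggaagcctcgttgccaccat
Mettl7b, chr10:128960939-128961238, minus strand: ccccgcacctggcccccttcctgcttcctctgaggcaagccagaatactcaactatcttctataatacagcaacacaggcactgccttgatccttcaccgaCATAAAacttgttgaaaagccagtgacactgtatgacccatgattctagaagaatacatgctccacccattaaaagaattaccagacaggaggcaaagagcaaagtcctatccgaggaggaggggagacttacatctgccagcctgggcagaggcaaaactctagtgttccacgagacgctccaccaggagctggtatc

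The windows differed in how many motifs they hold. The Fabp1 window has 5 matches. The Hnf1 half-site begins 107 bases before the start, Cdx motifs in reverse orientation begin 226 and 88 bases before it, and reversed nuclear receptor half-sites begin 67 and 9 bases before it. The Mettl7b window has 1, a reversed Cdx motif 149 bases before the start, and the Apob window has 0. Of the other windows, none has more than 1 match, and 5 of the 9 genes have 0. A match is a string of letters and not a measured binding site, and the absence of one concerns only this window.

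Other genes of lipid handling were taken from 7 lists, chosen with earlier results of these data known. Their counts are therefore a description. The lists hold 222 symbols and none of the members, and 200 of the genes were measured. Of these 200, 5 fell and 0 rose at an adjusted p below 0.05 over all probe sets, against 0.671% of all genes lower. They were Pdx1, Angptl4, Decr1, Pparg and Acaa2. At an unadjusted p under 0.05, 42 were lower and 13 higher. The groups did not overlap for 45 genes lower and 18 higher, against 12.1% and 11.4% of all genes, and the median difference was -0.10.

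**Figure D3:**
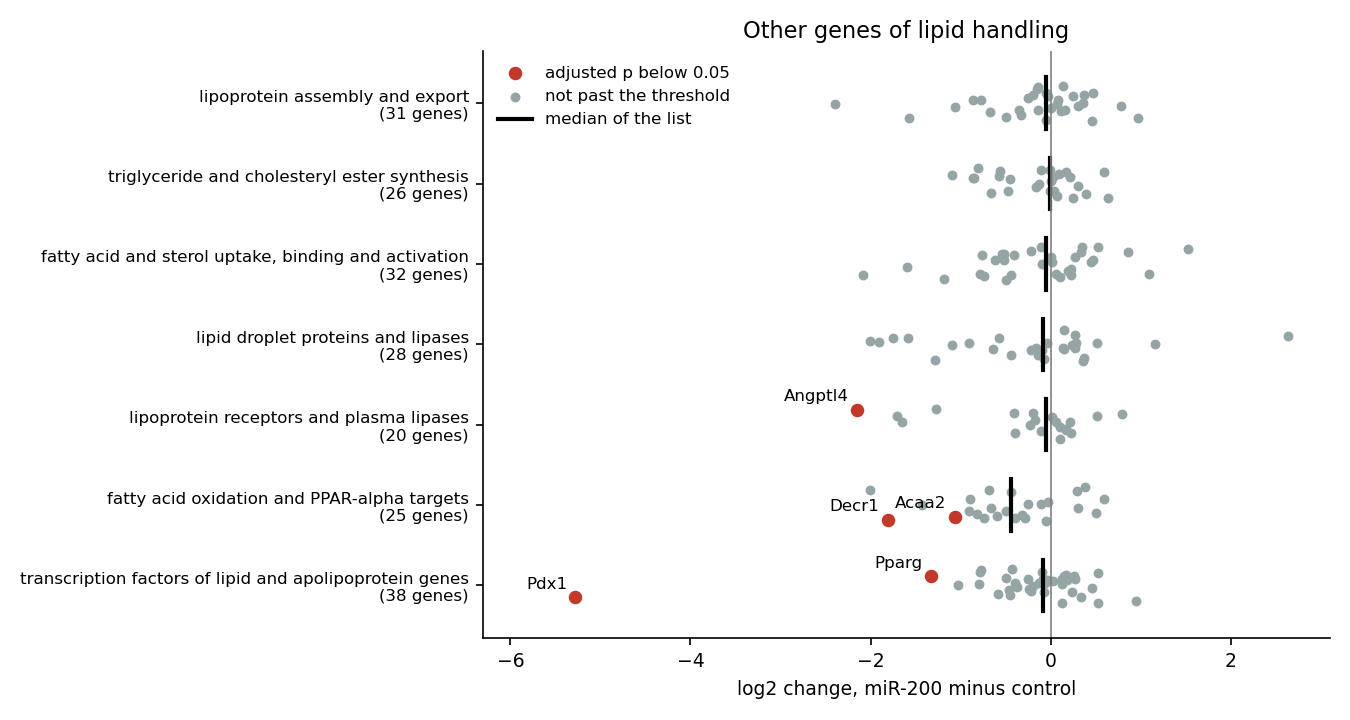
Difference in log2 signal, miR-200 minus control, for the genes of 7 lists, 1 point per gene by its brightest probe set, with the list median as a black line and genes past the threshold in red with their names. The medians lie between -0.09 and -0.0056 except that of fatty acid oxidation and PPAR-alpha targets, -0.44.

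The list of fatty acid oxidation and PPAR-alpha targets had the lowest median, -0.44 over 25 genes measured, and 20 of the 25 had differences below 0. Its groups did not overlap for 12 genes lower and 1 higher, against 12.1% and 11.4% of all genes. Decr1, a mitochondrial reductase needed to oxidise unsaturated fatty acids, read 8.53 ± 0.18 in the miR-200 cells and 10.34 ± 0.16 in the control cells, 3.50-fold lower (limma, adjusted p = 0.0191). The other, 1449443_at, gave -0.78 ± 0.22 and missed the threshold (adjusted p = 0.225). Acaa2, the thiolase of the last step of mitochondrial beta-oxidation, read 9.51 ± 0.02 in the miR-200 cells and 10.58 ± 0.06 in the control cells, 2.09-fold lower (adjusted p = 0.0330), and all 3 of its probe sets passed.

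The other oxidation genes with separate groups, named after their values were seen, did not pass. Among them Acot2, an acyl-CoA thioesterase, differed by -1.43 ± 0.28 (limma, adjusted p = 0.111) and Slc25a20, the carnitine carrier of mitochondria, by -0.90 ± 0.20 (adjusted p = 0.153). Cpt1a, which admits fatty acids to mitochondria, differed by -0.82 ± 0.26 (adjusted p = 0.262). Not all genes of the list had lower values: the PPAR-alpha targets Cyp4a14 and Pdk4 differed by 0.30 ± 0.20 and 0.39 ± 0.30 (adjusted p = 0.567 and 0.630). Without control B and miR-200 A the median of the 25 was -0.42, with 19 below 0.

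**Figure D4:**
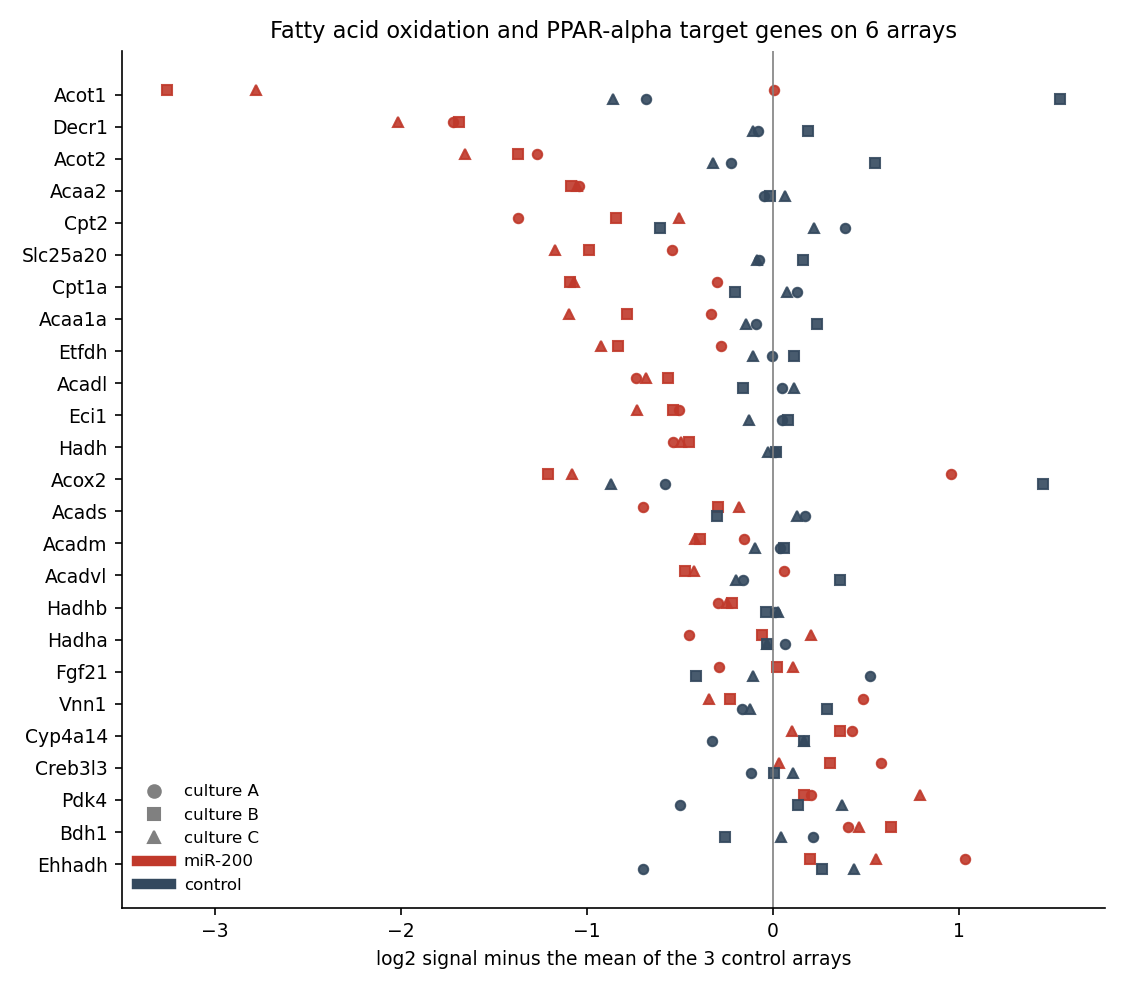
Log2 signal of each of the 25 genes of fatty acid oxidation and PPAR-alpha targets on the 3 miR-200 arrays (red, upper row of each gene) and the 3 control arrays (dark, lower row), relative to the mean of the 3 control arrays; marker shapes give the culture letter. For 12 genes, Decr1 and Acaa2 among them, all red points lie left of all dark points.

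Of 38 transcription factors of lipid and apolipoprotein genes 2 fell, against 0.671% of all genes, 0 rose, and the median was -0.09. Pdx1, a homeodomain factor of pancreas and duodenum, read 4.19, 4.37 and 4.94 in the miR-200 cells and 10.26, 8.81 and 10.26 in the control cells, at least 22.6-fold lower (limma, adjusted p = 0.0179). Its other probe set differed by -3.21 ± 0.57 (adjusted p = 0.0958). Pparg, a nuclear receptor of fat storage that enterocytes also express, read 10.04 ± 0.14 in the miR-200 cells and 11.37 ± 0.02 in the control cells, 2.52-fold lower (adjusted p = 0.0244).

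The factors best known for driving the members did not pass in the fit reported here. Hnf4a, which binds the promoters of many apolipoprotein genes, read 11.57 ± 0.17 in the miR-200 cells and 11.70 ± 0.10 in the control cells (limma, adjusted p = 0.739), and its 4 probe sets differed by -0.28 to -0.13. Cdx2, an intestinal homeodomain factor, read 10.17 ± 0.29 in the miR-200 cells and 10.97 ± 0.08 in the control cells, with separate groups on both probe sets (adjusted p = 0.157 and 0.233). Of the alternatives, Cdx2 passed only with array weights (limma, adjusted p = 0.0340). Ppara read 5.76 ± 0.11 in the miR-200 cells and 6.01 ± 0.13 in the control cells (adjusted p = 0.489).

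Of 20 lipoprotein receptors and plasma lipases 1 fell, against 0.671% of all genes, and 0 rose, with a median of -0.05. The gene that fell was Angptl4, an inhibitor of lipoprotein lipase, 4.42-fold lower (limma, adjusted p = 0.0275). Its brightest probe set read 9.22 ± 0.26 in the miR-200 cells and 11.37 ± 0.29 in the control cells. A difference of -0.30 ± 0.42 (adjusted p = 0.802) came from 1453410_at, with all 6 arrays below the gauge.

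Each of the 5 genes kept its direction in all 14 alternatives, but most of these could not turn it. With separate groups, leaving out or weighting arrays cannot change the sign of the same probe set. The filter on dim probe sets, the variance trend and the block leave the difference itself unchanged. The calls depended on the arrays and on the choice of probe set. When all probe sets of each gene were averaged, Angptl4 differed by -1.22 and Decr1 by -1.29, and neither passed (limma, adjusted p = 0.204 and 0.0588). Without 1 array, Pdx1 passed only without control B (limma, adjusted p = 0.0222), and Decr1 and Pparg passed only without miR-200 A (adjusted p = 0.0460 and 0.0409). Angptl4 and Acaa2 missed the threshold whichever array was left out, with adjusted p from 0.0515 to 0.151 and from 0.0590 to 0.173. Without both control B and miR-200 A none of the 5 passed, with adjusted p from 0.0508 for Pdx1 to 0.0834 for Acaa2.

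No gene passed in the other 4 lists in the fit reported here. Their counts at an unadjusted p under 0.05 in limma stand beside 6354 of 45037 probe sets in either direction, a share of probe sets and not of genes. Among 28 lipid droplet proteins and lipases, 10 were lower and 2 higher at an unadjusted p under 0.05 in limma, and the median was -0.09. Mettl7a1, a relative of Mettl7b now called Tmt1a, read 8.94 ± 0.57 in the miR-200 cells and 10.53 ± 0.35 in the control cells (adjusted p = 0.140). Plin3, another perilipin, read 9.75 ± 0.30 in the miR-200 cells and 10.65 ± 0.18 in the control cells (adjusted p = 0.151). For both genes the groups did not overlap, and for Mettl7a1 that held for all 3 probe sets. Of the alternatives, Mettl7a1 passed only with a variance trend (limma, adjusted p = 0.0488) and Plin3 only with array weights (adjusted p = 0.0487).

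Among 31 other genes of lipoprotein assembly and export, 4 were lower and 3 higher at an unadjusted p under 0.05 in limma, with a median of -0.05. Sar1b, the GTPase of the coat that exports chylomicron precursors, read 12.11 ± 0.11 in the miR-200 cells and 12.25 ± 0.08 in the control cells (adjusted p = 0.689). Apoe, a ligand of lipoprotein receptors, was under the gauge on all 6 arrays (adjusted p = 0.334).

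Among 26 genes of triglyceride and cholesteryl ester synthesis, 5 were lower and 2 higher at an unadjusted p under 0.05 in limma, and the median was -0.0056. The acyltransferases of the final step of triglyceride synthesis, Dgat1 and Dgat2, differed by -0.47 ± 0.17 (adjusted p = 0.321) and -0.16 ± 0.37 (adjusted p = 0.889).

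Among 32 genes of fatty acid and sterol uptake, binding and activation, 4 were lower and 0 higher at an unadjusted p under 0.05 in limma, with a median of -0.05. Fabp5, the epidermal-type fatty acid binding protein, read 12.90 ± 0.66 in the miR-200 cells and 12.84 ± 0.30 in the control cells (adjusted p = 0.966). Whether Fabp1 and Fabp5 differ in their response was not tested. The brightest probe set of Cd36, a fatty acid receptor, overlapped between the groups at 6.16 ± 0.33 in the miR-200 cells and 6.26 ± 0.25 in the control cells (adjusted p = 0.897). Its 2 dimmer probe sets had separate groups, with control B far above the other arrays at 8.57 and 7.87, and did not pass (adjusted p = 0.473 and 0.451).

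Marker lists were read beside these results, since the members are typical of cell types other than lung. These lists too were chosen with earlier results of these data known, and their counts are a description. Of 15 enterocyte markers measured, 2 fell, Tmigd1 and Cdhr5 (limma, adjusted p = 0.0125 and 0.0273), against 0.671% of all genes lower, and 0 rose. Tmigd1, an adhesion molecule of the brush border, was at least 39.0-fold lower and Cdhr5, a brush border cadherin, 2.90-fold lower. The summed linear signal of the 15 markers ranged from 10869 to 12118 in the miR-200 cells and from 18572 to 24074 in the control cells. Such a sum, here and below, is set mostly by the brightest probe sets and does not show a change of the whole list. The groups did not overlap for 6 of the 15 lower and 3 higher, against 12.1% and 11.4% of all genes. The higher ones were Mgam, Slc2a5 and Slc5a1. Without 1 array Tmigd1 passed only without miR-200 A or control B and Cdhr5 only without miR-200 A, and neither passed without both arrays (limma, adjusted p = 0.0549 and 0.0680). The enterocyte markers Anpep, Mgam, Slc5a1 and Treh were under the gauge on all arrays.

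Markers of 3 other cell types gave no calls. Of 14 hepatocyte markers 0 passed and 6, Ahsg, F2, Fgb, Fgg, Hp and Tat, were under the gauge on all arrays. Their summed signal ranged from 1735 to 3830 in the miR-200 cells and from 3095 to 4124 in the control cells. Of 7 adipocyte markers 0 passed, with Adipoq, Lep and Retn under the gauge on all arrays, and the sums ranged from 264 to 280.04 in the miR-200 cells and from 355 to 629 in the control cells. Of 10 macrophage markers 0 passed, with Aif1, C1qa, Lyz2 and Tyrobp under the gauge, and the sums ranged from 1724 to 2269 in the miR-200 cells and from 1468 to 1844 in the control cells. At an unadjusted p under 0.05 in limma the hepatocyte list had 0 genes in either direction, the adipocyte list 3 lower and the macrophage list 1 higher. The same cut was met by 6354 of 45037 probe sets in either direction, a share of probe sets and not of genes.

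Of 12 lung epithelial markers 2 fell, Sftpb 65.6-fold and Aqp5 2.75-fold (limma, adjusted p = 0.00249 and 0.0148), against 0.671% of all genes lower. The groups did not overlap for 3 of the 12 lower and 1 higher, against 12.1% and 11.4% of all genes. Sums of the 12 ranged from 3845 to 3881 in the miR-200 cells and from 12564 to 15233 in the control cells. Ager, Scgb1a1 and Sftpc were under the gauge on all arrays. Without Sftpb and Aqp5 the sums ranged from 1863 to 1978 in the miR-200 cells and from 2179 to 2236 in the control cells. The list's median difference was -0.20, and those of Slc34a2, Napsa, Sftpd and Sftpc were above 0. Sftpb passed without any 1 array and without both arrays, whereas Aqp5 passed only without miR-200 A or control B and missed without both (limma, adjusted p = 0.0630). The 8 markers of carcinoma epithelium, Cdh1 and Krt8 among them, were each above the gauge on at least 3 arrays, with sums from 56368 to 59988 in the miR-200 cells and from 56210 to 58532 in the control cells. In that list 2 of the 8, Cldn4 and Muc1, rose at least 15.6-fold and 3.92-fold (limma, adjusted p = 0.0217 and 0.0171). Over all genes 0.945% were past the threshold in either direction. Without 1 array Cldn4 and Muc1 passed only without miR-200 A, and neither passed without both arrays (limma, adjusted p = 0.0756 and 0.0707). The part of cell types or cell states in the differences of the lipid handling genes was not tested.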

How the data were processed

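Per the labels, biotin-labelled RNA of 6 cultures was hybridized to Affymetrix mouse arrays. As deposited by the authors, the table gives log2 signals; their summary method and scaling are not given in the sources used here. Each array held 1578 to 1718 values of exactly 0. The deposited log2 values were quantile normalized, since the interquartile ranges of the arrays spanned 0.174. Of 45101 probe sets 64 controls were left out, and 34945 of the others had 1 gene symbol, 932 several and 9160 none listed. Groups were compared with limma 3.58.1 in R 4.3.3 (lmFit, eBayes), with Benjamini-Hochberg adjustment over 45037 probe sets and a threshold of 0.05; every adjusted p is from limma. Counts of genes use the brightest probe set of each. The fit was tested on simulated data.

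The members and lists were chosen with earlier results of these data known, as was the background gauge. Named were all member probe sets, up to 5 genes of each list and up to 3 of each marker list past the threshold by size, and a fixed set of regulators and enzymes whatever their values. The precision is limited by 3 arrays per group. Alternatives were the values as deposited, median centring, a filter on dim probe sets, a variance trend, array weights, the culture letter as a block, a minimum change, mean probe sets, and left-out arrays.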

Additional observations from a re-analysis of the deposited data

How the results depend on the processing

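The number of probe sets past the threshold, 335, moved to 923 without the dimmest 40% of probe sets, 951 with a variance trend, 1291 with array weights, 103 without both control B and miR-200 A, and 78 with a minimum log2 change of 1. Without 1 array it ranged from 32 (without control A) to 328 (without miR-200 A). The 2 member genes became 1, Mettl7b, with the minimum change, and ranged from 1 to 2 without 1 array. They became 3, with Fabp1 added, with a variance trend, array weights or the mean of probe sets. The 5 genes of the pathway lists became 11 without the dimmest probe sets, 16 with a variance trend and 17 under array weights. They became 0 when both arrays were left out and 1 with the minimum change, and ranged from 0 to 3 without 1 array. With the mean of probe sets they were also 5, but with Abca1 and Hsd17b11 in place of Angptl4 and Decr1. With the culture letter as a replicate block all 3 counts were 0 in limma, against 4280 probe sets, 4 member genes and 33 list genes at an unadjusted p under 0.05. Deviations of same-letter cultures from their group means correlated with r of -0.58, -0.67 and 0.43, against 0.71 for miR-200 A with control B. With 3 arrays per group these deviations constrain each other. They therefore cannot decide whether the letters pair the cultures. Values as deposited and median centring left the 2 and 5 genes as they were.

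Signs turned for genes that never passed. The difference of Fabp5 was -0.027 with median centring and ranged from -0.14 to 0.44 without 1 array. That of Cd36 was 0.082 under array weights, 0.17 when both arrays were left out, and -0.24 to 0.085 without 1 array. That of Ppara was 0.25 with the mean of probe sets, and that of Dgat2 ranged from -0.47 to 0.11 without 1 array. The cause was not tested. Signals under the gauge limit what can be said of Apoa4, Apoc3 and 3 of the Apoa1 probe sets.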
